A study of Homo sapiens with 10 samples.

Results

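The genes of the mitochondrial respiratory chain were followed across 3 subsets of MDA-MB-231 breast cancer cells (BCCs) that differed in the activity of an Oct4A promoter. A gene was a member if its single symbol on the array began with NDUF, SDHA to SDHD, UQCR, CYC1, ATP5, COX4 to COX8 or COX1 followed by a digit, and each gene was read from its probe set with the highest mean over all 10 arrays. The rule found 44 genes among 12082 genes with a single symbol in the deposited table. Of these 44, 41 encode proteins and 3 are non-coding (the pseudogenes ATP5MC2P1 and COX6A1P1 and the antisense RNA NDUFV2-AS1). The current RefSeq annotation holds 109 protein-coding genes whose symbols fit the rule, and the 68 of them without a single-symbol probe set in the table were not analysed here.

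MDA-MB-231 is a basal-like human breast cancer line. The cells were stable transfectants of pEGFP1-Oct3/4, in which the Oct4A promoter drives green fluorescent protein (GFP), and all of them, Oct4low BCCs included, had gone through neomycin selection. Sorting by GFP gave Oct4hi BCCs (the brightest 5%), Oct4low BCCs (the dimmest 5% per the labels and the methods of the paper, a wider gate in its results) and Oct4med BCCs between these extremes. RNA of 4 Oct4hi, 2 Oct4med and 4 Oct4low samples, labelled as biological replicates, was hybridized to Affymetrix U133 Plus 2.0 arrays, and the values are RMA-normalized log2 intensities. The subsets are defined by a reporter in 1 cell line, and the labels do not say whether the transfectants came from 1 clone, so the p-values cover only the spread between these samples. In bulk RNA of sorted cells, fewer cells with a transcript and less transcript per cell cannot be told apart.

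The respiratory chain sits in the inner mitochondrial membrane. Complexes I and II pass electrons from NADH and succinate to coenzyme Q, complex III passes them to cytochrome c, and complex IV hands them to oxygen, while ATP synthase uses the proton gradient that is built up on the way. Most of the subunits are encoded in the nucleus and imported, a few are encoded by mitochondrial DNA, and dedicated assembly factors join them without staying in the finished complex. In tumor cells the chain supplies ATP and keeps the carriers oxidized that growing cells need for biosynthesis.

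Of the 44 genes, 31 could be tested, since their probe set was at or above the median of its array in at least 2 arrays. They covered complex I (13 genes, 4 of them assembly factors), complex II (SDHD and the assembly factor SDHAF3), complex IV (8 genes), ATP synthase (5 genes, the inhibitor ATP5IF1 included) and the 3 non-coding genes. The other 13 genes (ATP5F1A, ATP5MC2, ATP5PO, COX10, NDUFA5, NDUFAF5, NDUFAF8, NDUFB1, NDUFB2, NDUFB4, NDUFB6, SDHC and UQCRB) lay between 2.82 and 5.23 on the log2 scale in all arrays, against array medians of 5.05 to 5.14. For these the table held dim probe sets, which do not give the level of the gene. UQCRB was the single member from complex III, and complex III was therefore not tested. None of the 15 genes of the mitochondrial DNA had a single-symbol probe set in the table. The authors' filter had left out features that changed little, so the shares below apply to the genes that remained and not to the whole chain.

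The promoters of the 3 genes that the results turn on most are printed here, since NDUFB11 and NDUFV3 were higher and ATP5F1C was lower in Oct4hi BCCs. Each line gives 250 bases before the start of the gene, 5′ to 3′ on the strand of the gene, from RefSeq in build GRCh38.p14. The coordinates are chrX:47144703-47144952 (minus strand) for NDUFB11, chr21:42893059-42893308 (plus strand) for NDUFV3 and chr10:7787927-7788176 (plus strand) for ATP5F1C. Capitals mark matches to 4 promoter motifs, searched on both strands: NRF1 (GCGCATGCG), ETS, which GABP also binds (CCGGAAG), YY1 (AAGATGGCG) and the CCAAT box (CCAAT).
NDUFB11: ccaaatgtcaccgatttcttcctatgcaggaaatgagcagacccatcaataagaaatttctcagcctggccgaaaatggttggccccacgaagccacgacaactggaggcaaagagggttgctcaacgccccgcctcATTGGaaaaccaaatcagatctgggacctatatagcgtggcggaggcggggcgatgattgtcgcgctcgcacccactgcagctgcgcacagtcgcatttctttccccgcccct
NDUFV3: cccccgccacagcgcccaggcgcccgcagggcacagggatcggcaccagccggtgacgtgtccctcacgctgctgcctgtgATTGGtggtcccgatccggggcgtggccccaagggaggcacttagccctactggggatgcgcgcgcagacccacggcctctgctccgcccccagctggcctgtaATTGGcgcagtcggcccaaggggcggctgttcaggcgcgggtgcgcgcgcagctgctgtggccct
ATP5F1C: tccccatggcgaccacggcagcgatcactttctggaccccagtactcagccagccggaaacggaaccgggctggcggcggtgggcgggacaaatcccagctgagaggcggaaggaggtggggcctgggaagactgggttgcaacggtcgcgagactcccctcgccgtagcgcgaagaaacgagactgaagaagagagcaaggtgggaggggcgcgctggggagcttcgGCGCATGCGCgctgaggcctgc

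ATP5F1C held the NRF1 letters on both strands in 1 overlapping stretch, from position -22 to -13 counted from the start. NDUFB11 held 1 CCAAT box (positions -113 to -109) and NDUFV3 held 2 (positions -169 to -165 and -65 to -61), all on the opposite strand. Windows of 300 bases, with 50 after the start, were found for 38 of the 44 genes, several for some genes and 51 in all. NRF1 letters stood in 8 of the 51 windows (15.7%) and in 1.92% of all 35116 RefSeq windows. ETS letters stood in 15 of the 51 (29.4%, against 10.3% of all windows), YY1 letters in 7 (13.7%, against 1.75%) and the CCAAT box in 22 (43.1%, against 34.6%). These shares count windows and not genes, and overlapping windows of a gene can hold the same site. The YY1 windows belong to ATP5PF, COX10, NDUFA7, NDUFAF8 and NDUFB8, and the windows of ATP5PF and of NDUFAF8 repeat a site. A match of letters is a description of the sequence and not a bound site.

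Depth does not apply to arrays, whose number limits the precision. The median SD between replicates of the tested members was 0.10 (Oct4low), 0.11 (Oct4med) and 0.10 (Oct4hi) on the log2 scale, and over all 13883 tested probe sets it was 0.12 in each subset. Of the basal markers, CAV1, ANXA1 and CD44 had subset means between 10.87 and 12.85, whereas the probe sets of VIM (3.75 to 4.04) and MSN (4.90 to 5.18) were dim. EGFR, PLAU and SPARC had subset means between 5.79 and 8.85. PTPRC, which defines leukocytes, lay between 3.09 and 3.19, below every array median, while CD3E (5.27 to 5.50) and CD14 (5.01 to 5.51) lay near the medians. The mean level of the erythroid markers (4 of 8 in the table) ranged from 5.61 to 5.73 in Oct4low, from 5.75 to 5.92 in Oct4med and from 5.81 to 6.01 in Oct4hi arrays. Between Oct4low and Oct4hi BCCs HBE1 went from 7.21 to 7.95, while GATA1 (6.05 and 6.05), TAL1 (5.83 and 5.87) and ALAS2 (3.54 and 3.62) differed little. The luminal markers (8 of 10) ranged from 6.85 to 6.94, from 6.63 to 6.71 and from 6.59 to 6.63. The stromal markers (5 of 5) ranged from 5.36 to 5.49, from 5.37 to 5.41 and from 5.35 to 5.47. Among them COL1A1 had subset means between 7.98 and 8.39 and PDGFRB between 7.03 and 7.24. The basal markers (8 of 10) ranged from 8.35 to 8.40, from 8.40 to 8.48 and from 8.15 to 8.21, and the part of these shifts in the results was not tested.

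To ask how the chain differed at the extremes of Oct4A reporter activity, Oct4hi BCCs were compared with Oct4low BCCs. In Oct4hi BCCs 5 of the 31 tested genes were higher (NDUFV3, COX15, NDUFB11, NDUFAF4 and NDUFAF3) and 4 were lower (ATP5F1C, COX7B, NDUFB8 and COX4I1) by limma's moderated test at an adjusted p under 0.05. Over all 7644 genes tested the same rule placed 20.4% higher and 14.7% lower, against 16.1% and 12.9% of the members, which is near the background in both directions. All of the changes were below 1.4-fold. Of the 5 genes that rose, 4 belong to complex I, as subunits (NDUFV3, NDUFB11) or assembly factors (NDUFAF3, NDUFAF4), and the fifth, COX15, is needed to make the heme A of complex IV. The genes that fell were subunits of ATP synthase, complex IV and complex I. Complex I held 13 of the 31 tested genes, and 30.8% of its genes were higher and 7.69% lower. Of all genes with a mean at or above the 75th percentile of the arrays, 30.5% were higher and 19.9% lower.

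**Figure D1:**
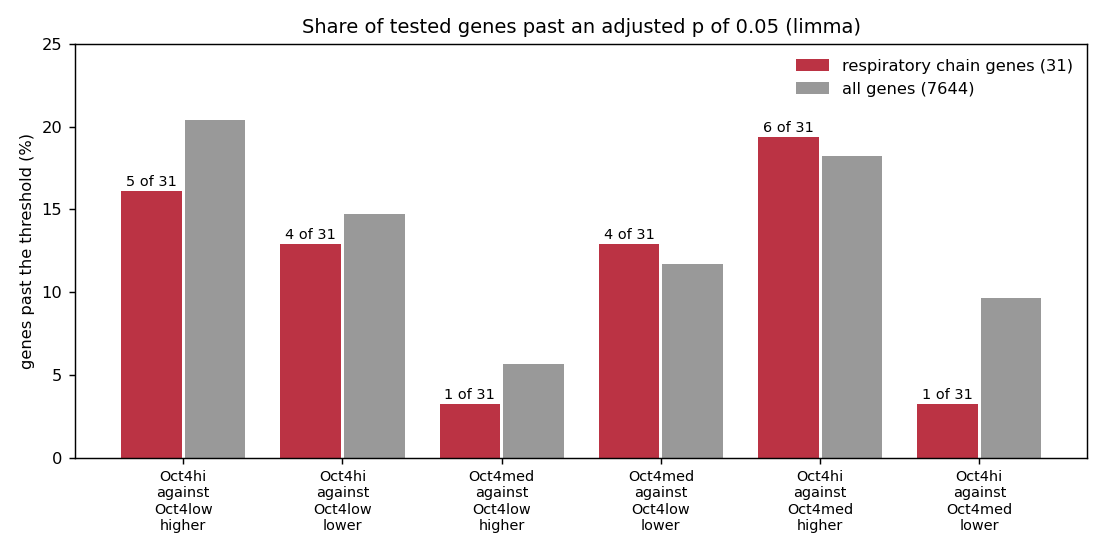
Percentage of tested genes with an adjusted p under 0.05 in each comparison and direction, for the 31 respiratory chain genes (red bars, with the count above) and all 7644 genes tested (gray bars). The widest gap is in Oct4hi against Oct4med BCCs, where 1 of 31 members (3.23%) and 9.62% of all genes were lower.

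NDUFV3, an accessory subunit beside the NADH-binding end of complex I, had log2 values of 10.05, 10.14, 10.23 and 10.16 in the Oct4low arrays, 10.10 and 10.07 in the Oct4med arrays and 10.59, 10.65, 10.59 and 10.59 in the Oct4hi arrays. All 4 Oct4hi arrays were above all others, and the Oct4med arrays lay within the Oct4low range. The rise in Oct4hi over Oct4low BCCs was 0.46 ± 0.07 (SE, log2; 1.38-fold, adjusted p = 0.000331 by limma).

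NDUFB11, an accessory subunit in the membrane arm of complex I, had log2 values of 10.53, 10.66, 10.62 and 10.58 in the Oct4low arrays, 10.34 and 10.31 in the Oct4med arrays and 10.89, 10.91, 10.91 and 10.995 in the Oct4hi arrays. The 3 subsets did not overlap, with Oct4med lowest and Oct4hi highest. Oct4hi exceeded Oct4low BCCs by 0.33 ± 0.07 (SE, log2; 1.25-fold, adjusted p = 0.00252 by limma).

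ATP5F1C encodes the gamma subunit of ATP synthase, the shaft that turns inside the catalytic head. It showed the opposite pattern, with log2 values of 12.08, 12.11, 12.13 and 12.12 in the Oct4low arrays, 12.04 and 12.00 in the Oct4med arrays and 11.64, 11.65, 11.69 and 11.75 in the Oct4hi arrays. The Oct4hi arrays were below all others and the subsets did not overlap. The fall in Oct4hi against Oct4low BCCs was -0.43 ± 0.06 (SE, log2; 1.35-fold, adjusted p = 0.000385 by limma). Its other probe sets of high signal differed by -0.42 and -0.40 with adjusted p of 0.000401 and 0.000634. All of these carry the suffix _x_at, which marks probes that can also match other transcripts.

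The assembly factors of complex I included NDUFAF3 and NDUFAF4, which act together in building its matrix arm. NDUFAF3 had log2 values of 9.63, 9.68, 9.73 and 9.70 in the Oct4low arrays, 9.50 and 9.51 in the Oct4med arrays and 9.83, 9.90, 9.88 and 10.005 in the Oct4hi arrays, in the same order of subsets as NDUFB11. Its rise in Oct4hi over Oct4low BCCs was 0.22 ± 0.07 (SE, log2; 1.16-fold, adjusted p = 0.0259). NDUFAF4 rose by 0.25 ± 0.09 (SE, log2; 1.19-fold, adjusted p = 0.0398), from 6.17 ± 0.12 to 6.42 ± 0.05 (SD, 4 arrays each), and its Oct4med arrays (6.20 and 6.48) spanned both extremes. NDUFAF3 was lost without Oct4hi replicate 2 or 4 or Oct4low replicate 1 or 2 (adjusted p of 0.0562 to 0.0718), under quantile normalization (0.10, adjusted p = 0.281) and with no filter (adjusted p = 0.0834). NDUFAF4 was lost without Oct4hi replicate 1, 2 or 4 or Oct4low replicate 1, 3 or 4 (0.0577 to 0.107), with no filter (0.0820) and with a trend and robust prior in limma (0.0525).

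COX15 had log2 values of 8.17, 8.02, 7.86 and 7.91 in the Oct4low arrays, 7.82 and 8.33 in the Oct4med arrays and 8.44, 8.22, 8.30 and 8.56 in the Oct4hi arrays. All Oct4hi arrays were above all Oct4low arrays, and the Oct4med arrays lay far apart. The rise was 0.39 ± 0.12 (SE, log2; 1.31-fold, adjusted p = 0.0220), and a second probe set of COX15 gave 0.39 with an adjusted p of 0.0107. Without Oct4hi replicate 1 or 4 or Oct4low replicate 3 or 4 the adjusted p of COX15 was between 0.0563 and 0.0619. Over all 8 tested assembly factors of complexes I, II and IV, 3 rose, none fell and 5 did not pass (20.4% of all genes tested were higher and 14.7% lower). The median difference was 0.19, against 0.02 for all genes tested, whereas the 19 tested subunits had 2 higher, 4 lower and a median of -0.09. At an unadjusted p under 0.05, as with the methods' t-test after adjustment, 0 of the 8 assembly factors were lower. The difference between assembly factors and subunits was not tested.

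Complex IV subunits that fell were COX4I1 and COX7B. COX4I1, the common isoform of the largest nuclear-encoded subunit, had log2 values of 7.42, 7.48, 7.42 and 7.58 in the Oct4low arrays, 7.23 and 7.26 in the Oct4med arrays and 7.18, 7.23, 7.18 and 7.29 in the Oct4hi arrays. The Oct4low arrays were above all others. The fall was -0.26 ± 0.07 (SE, log2; 1.19-fold, adjusted p = 0.0120). A dimmer COX4I1 probe set differed by -0.12 with an adjusted p of 0.436, so the probe sets differ in call. COX7B, a small subunit, fell by -0.30 ± 0.09 (SE, log2; 1.23-fold, adjusted p = 0.0236), with log2 values of 6.29 to 6.70 in the Oct4low and 6.15 to 6.32 in the Oct4hi arrays, which overlap. Without Oct4hi replicate 1 or 3 or Oct4low replicate 2 or 3 its adjusted p was between 0.0530 and 0.0698. With the arrays set to a common median it was 0.0564, and by the methods' t-test it was 0.0722.

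NDUFB8, an accessory subunit in the membrane arm of complex I, fell by -0.29 ± 0.08 (SE, log2; 1.22-fold, adjusted p = 0.0147). Its values were 5.12, 5.17, 5.29 and 5.26 in the Oct4low arrays and 4.75, 5.03, 4.99 and 4.91 in the Oct4hi arrays. The subsets did not overlap, at a signal close to the array medians. The probe set reached the median of its array in 4 arrays, none of them Oct4hi. It passed the filter through the subsets where it was higher, which weakens this call. NDUFB11, also of the membrane arm, rose, but a probe set this dim does not give a level of NDUFB8 to set beside it. Without Oct4hi replicate 1 NDUFB8 had an adjusted p of 0.0504.

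Of the core subunits of complex I, NDUFS1 and NDUFV1 had a tested probe set. NDUFS1, the largest core subunit of complex I and a carrier of iron-sulfur clusters, differed by 0.05 between Oct4hi and Oct4low BCCs, with a 95% interval of -0.20 to 0.29. NDUFV1, the subunit that binds NADH, differed by -0.22 (95% interval -0.43 to -0.01, adjusted p = 0.0980). Among isoforms of restricted tissue expression, COX4I2 differed by -0.12 (interval -0.31 to 0.06), the muscle isoform COX6A2 by 0.03 (-0.23 to 0.29) and the testis isoform COX6B2 by 0.08 (-0.13 to 0.28). None of these passed the test, and the intervals do not show that the levels were equal.

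Complex II was represented by SDHD, a membrane anchor, and SDHAF3, an assembly factor. SDHD had log2 values of 11.58, 11.52, 11.61 and 11.55 in the Oct4low arrays and 11.77, 11.74, 11.70 and 11.72 in the Oct4hi arrays. These arrays did not overlap, and the difference of 0.17 ± 0.07 (SE, log2) had an adjusted p of 0.0997. SDHAF3 differed by 0.19 ± 0.11 (SE, log2; adjusted p = 0.216).

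**Figure D2:**
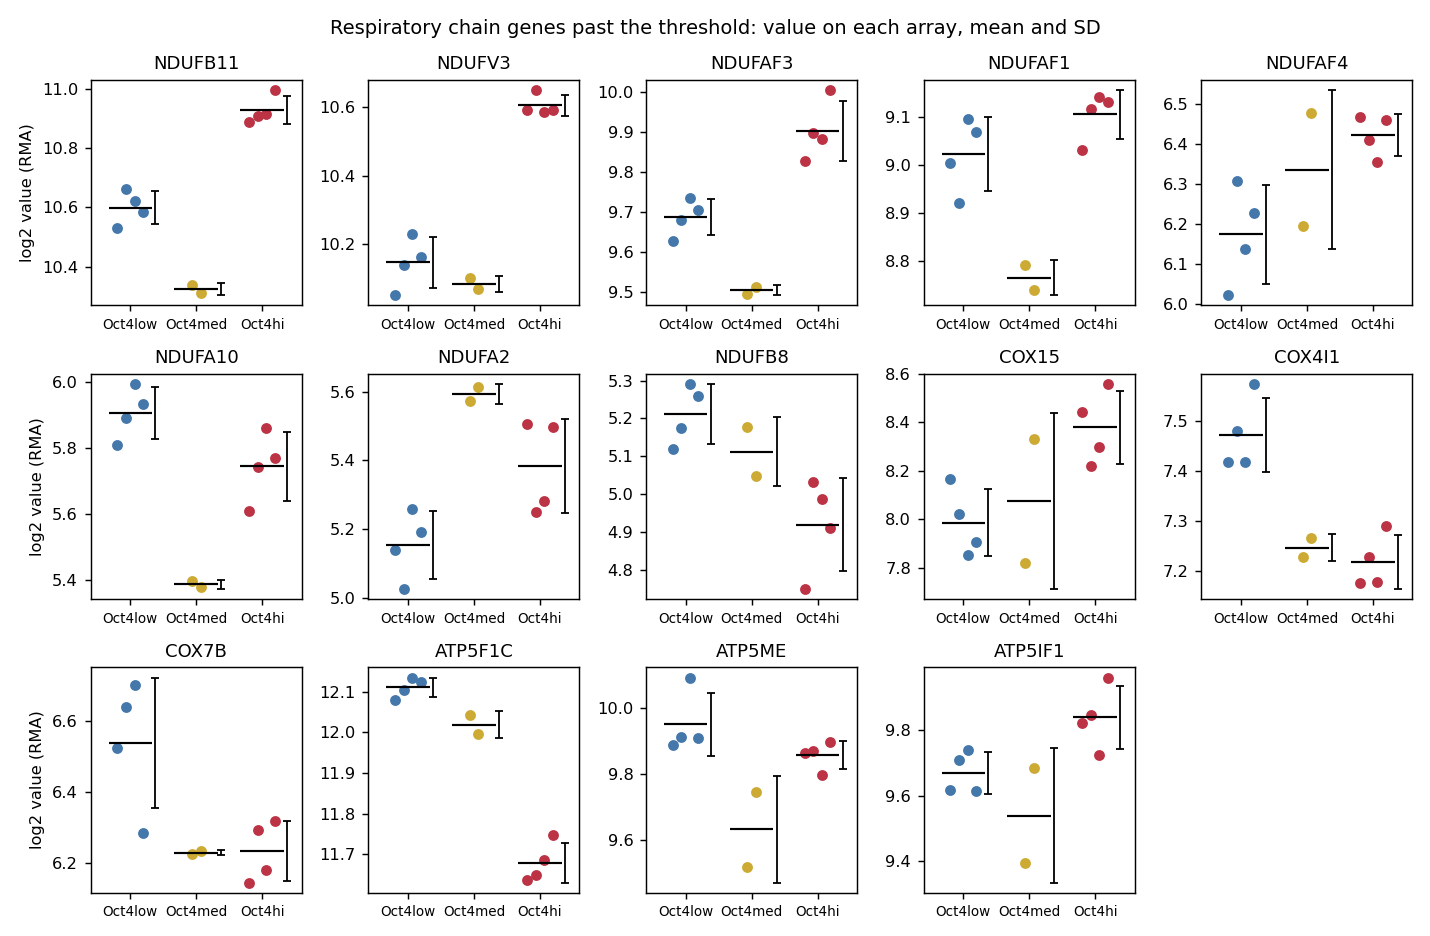
Log2 value (RMA) of the 14 respiratory chain genes that passed the test in at least 1 comparison, with 1 panel per gene and its own axis. Points are arrays (4 Oct4low, 2 Oct4med, 4 Oct4hi), lines are means and bars are SDs, and NDUFB11 and NDUFAF3 show the same order of subsets while ATP5F1C shows its lowest values in Oct4hi BCCs.

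The median difference of the 31 genes between Oct4hi and Oct4low BCCs was 0.07, against 0.02 for all genes tested. Among the 13 members whose mean was at or above the 75th percentile of the arrays, 4 were higher and 2 lower (30.8% and 15.4%), and 30.5% and 19.9% of all genes of that brightness were. With all deposited probe sets in the fit the median of the members was -0.03, and the count of higher genes was 3. Without Oct4hi replicate 4, 2 genes were higher, and without Oct4hi replicate 1, Oct4low replicate 1 or Oct4low replicate 4, 3 genes were.

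**Figure D3:**
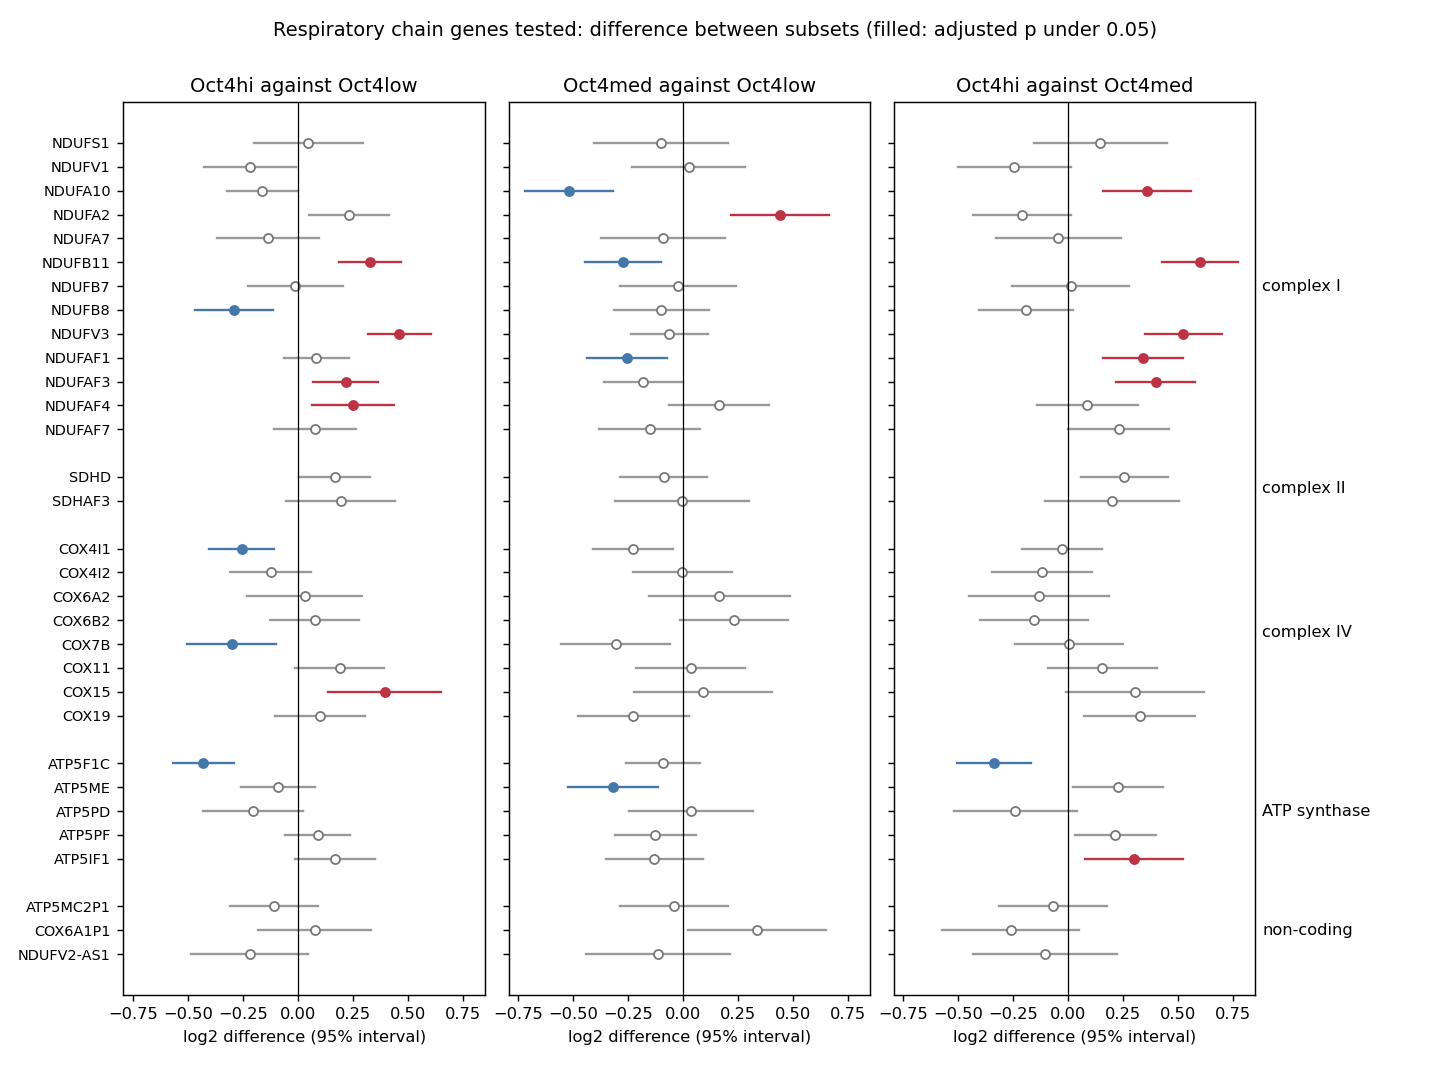
Difference in log2 value between subsets for the 31 tested respiratory chain genes, grouped by complex, with 95% intervals that are not adjusted for the number of genes. Filled points passed an adjusted p of 0.05 (red higher, blue lower), 5 higher and 4 lower in Oct4hi against Oct4low, 1 and 4 in Oct4med against Oct4low and 6 and 1 in Oct4hi against Oct4med BCCs.

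The intermediate subset was next set against Oct4low BCCs, which enter both this and the preceding comparison. In Oct4med BCCs 1 of the 31 genes was higher (NDUFA2) and 4 were lower (NDUFA10, ATP5ME, NDUFB11 and NDUFAF1). These are 3.23% and 12.9% of the members, and 5.68% and 11.7% of all genes tested were higher and lower. Of the 5 genes, 4 belong to complex I, which held 13 of the 31 tested genes (7.69% of its genes higher and 23.1% lower). Of all genes with a mean at or above the 75th percentile of the arrays, 6.74% were higher and 16.9% lower. The median difference of the members was -0.09, against 0.03 for all genes, and 22 of the 31 differences were negative, as were 3470 of the 7644 over all genes. The median was -0.03 without Oct4med replicate 1 and -0.19 without replicate 2.

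NDUFA10, an accessory subunit of the membrane arm, had log2 values of 5.81, 5.89, 5.995 and 5.93 in the Oct4low arrays, 5.40 and 5.38 in the Oct4med arrays and 5.61, 5.74, 5.86 and 5.77 in the Oct4hi arrays. Both Oct4med arrays were below all others. The fall was -0.52 ± 0.09 (SE, log2; 1.43-fold, adjusted p = 0.00204 by limma). NDUFA2, an accessory subunit of the matrix arm, had values of 5.14, 5.03, 5.26 and 5.19 in the Oct4low arrays, 5.57 and 5.61 in the Oct4med arrays and 5.51, 5.25, 5.28 and 5.50 in the Oct4hi arrays. It rose by 0.44 ± 0.10 (SE, log2; 1.36-fold, adjusted p = 0.0107) in Oct4med over Oct4low BCCs, and Oct4hi against Oct4low BCCs gave 0.23 (adjusted p = 0.0507). Its Oct4low values lay near the medians of those arrays (5.06 to 5.13), so this call rests on a dim probe set. NDUFA10 passed with any 1 array left out, whereas NDUFA2 had an adjusted p of 0.0522 or 0.0578 without either Oct4med array.

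ATP5ME, the e subunit of ATP synthase that helps the enzyme form dimers, had log2 values of 9.89, 9.91, 10.09 and 9.91 in the Oct4low arrays, 9.52 and 9.75 in the Oct4med arrays and 9.86, 9.87, 9.80 and 9.90 in the Oct4hi arrays. Its fall in Oct4med BCCs was -0.32 ± 0.09 (SE, log2; 1.25-fold, adjusted p = 0.0330). NDUFB11 fell by -0.27 ± 0.08 (SE, log2; 1.21-fold, adjusted p = 0.0312). NDUFAF1, an assembly factor for the membrane arm of complex I, fell by -0.26 ± 0.08 (SE, log2; 1.19-fold, adjusted p = 0.0484), with values of 9.004, 8.92, 9.09 and 9.07 in the Oct4low and 8.79 and 8.74 in the Oct4med arrays. For each of these genes both Oct4med arrays were below all Oct4low arrays. In complex IV, COX7B differed by -0.31 (adjusted p = 0.0742) and COX4I1 by -0.23 (adjusted p = 0.0738), also with no overlap. ATP5ME was lost without Oct4low replicate 2 or 3 or Oct4med replicate 1 (adjusted p of 0.0567 to 0.279), and NDUFB11 without either Oct4med array or Oct4low replicate 2, 3 or 4 (0.0513 to 0.103). NDUFAF1 was lost without any 1 of the 10 arrays (0.0518 to 0.156). The 3 non-coding genes did not pass in any comparison, and the largest of their differences was that of COX6A1P1 (0.34, adjusted p = 0.119).

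The Oct4med arrays were 2 and not alike for these genes. The members' median deviation from their own means was -0.13 in Oct4med replicate 1 and -0.03 in replicate 2, and between -0.003 and 0.08 in the other 8 arrays. NDUFS1 was at 7.94 and 8.52 in these arrays and COX15 at 7.82 and 8.33. The brightest 28S ribosomal RNA control probe set was at 12.70 ± 0.09 in Oct4med arrays (SD, n = 2), against 13.60 ± 0.07 in Oct4low and 13.57 ± 0.03 in Oct4hi arrays (SD, n = 4 each), and its part in the result was not tested. Without Oct4med replicate 1, 1 gene was lower and 0 were higher by limma, with 2 higher at an unadjusted p under 0.05 when all arrays were kept and 0 by the methods' t-test. Without Oct4low replicate 2 or replicate 3, 1 gene was lower, and without Oct4med replicate 2, 2 genes were.

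Lastly, Oct4hi BCCs were compared with Oct4med BCCs, in which both subsets are shared with the comparisons above. In Oct4hi BCCs 6 of the 31 genes were higher (NDUFB11, NDUFV3, NDUFAF3, NDUFA10, NDUFAF1 and ATP5IF1) and 1 was lower (ATP5F1C). These are 19.4% and 3.23% of the members, beside 18.2% and 9.62% of all genes tested. Complex I, which held 13 of the 31 tested genes, gave 5 of the 6 genes that rose (38.5% of its genes, against 18.2% of all genes tested). Of all genes with a mean at or above the 75th percentile of the arrays, 27.5% were higher. Among the complex I genes that rose, all but NDUFA10 were that bright. The median difference of the members was 0.09, against -0.01 for all genes tested. It was -0.01 without _x_at and _s_at probe sets and also with no filter, 0.01 with the mean of the probe sets of a gene and 0.008 without Oct4med replicate 1.

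NDUFB11 showed the largest difference of any tested member in the 3 comparisons, 0.60 ± 0.08 (SE, log2; 1.52-fold, adjusted p = 0.000275 by limma). NDUFV3 rose by 0.52 ± 0.08 (SE, log2; 1.44-fold, adjusted p = 0.000801) and NDUFAF3 by 0.40 ± 0.08 (SE, log2; 1.32-fold, adjusted p = 0.00459). NDUFA10 rose by 0.36 ± 0.09 (SE, log2; 1.28-fold, adjusted p = 0.0145) and NDUFAF1 by 0.34 ± 0.08 (SE, log2; 1.26-fold, adjusted p = 0.0120), and both were lowest in Oct4med BCCs. ATP5IF1, the inhibitor that stops ATP synthase from hydrolyzing ATP, had values of 9.39 and 9.68 in the Oct4med and 9.82, 9.85, 9.73 and 9.96 in the Oct4hi arrays. The difference was 0.30 ± 0.10 (SE, log2; 1.23-fold, adjusted p = 0.0468). ATP5F1C fell by -0.34 ± 0.08 (SE, log2; 1.27-fold, adjusted p = 0.00786). Without either Oct4med array NDUFA10 (adjusted p of 0.0514 or 0.0787) and NDUFAF1 (0.0509 or 0.0558) did not pass, and ATP5IF1 was lost without any 1 array other than Oct4hi replicate 3 or Oct4med replicate 2 (0.0507 to 0.466). Under quantile normalization NDUFAF3 (0.24, adjusted p = 0.0580), NDUFAF1 (0.20, adjusted p = 0.126) and ATP5IF1 (0.13, adjusted p = 0.270) did not pass.

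NDUFAF1 in the Oct4hi arrays was at 9.03, 9.12, 9.14 and 9.13, above the Oct4med and overlapping the Oct4low arrays. In complexes II and IV, SDHD (0.26, adjusted p = 0.0551) and the copper chaperone COX19 (0.33, adjusted p = 0.0554) were above every Oct4med array without passing the test. Without Oct4med replicate 1, 3 genes were higher and none lower, and ATP5F1C had an adjusted p of 0.0674. Without Oct4med replicate 2, 9 were higher and 3 were lower.

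The largest difference belonged to NDUFB11, and the members most like it over the 10 arrays were NDUFAF3 (Pearson's r = 0.98), NDUFV3 (0.92), NDUFAF1 (0.84), ATP5PF (0.83) and ATP5IF1 (0.81). ATP5F1C was least like it (r = -0.77). Of these, 4 genes encode parts or assembly factors of complex I, NDUFB11 included, and 3 belong to ATP synthase. These correlations describe the arrays, which share the 3 subsets. Over the 13 bright members, Oct4hi BCCs had the highest mean for 10 (76.9%, against 47.6% of all genes of that brightness) and Oct4med BCCs the lowest for 10 (76.9%, against 40.3%). The Oct4med means rest on 2 arrays that were not alike, with median deviations of the tested members of -0.13 and -0.03. Over all 31 members Oct4hi BCCs were highest for 14 (45.2%, against 36.7% of all genes tested) and Oct4med BCCs lowest for 15 (48.4%, against 31.3%), and among the 18 dimmer members Oct4hi BCCs were highest for 4 (22.2%, against 24.0% of all genes of that brightness).

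Other nuclear genes of mitochondrial function were read from lists chosen by function, with 1 probe set per gene. Their counts are set beside 20.4% higher and 14.7% lower over all genes tested (30.5% and 19.9% of the bright ones). In Oct4hi against Oct4low BCCs the mitochondrial ribosome had 6 of 20 tested genes higher and none lower, and 2 of the 20 were lower at an unadjusted p under 0.05 and 0 by the methods' t-test. Protein import had 5 of 10 higher and 1 lower. The citric acid cycle and pyruvate dehydrogenase list had 3 of 10 higher and 3 lower. Other assembly factors and electron carriers had 3 of 16 higher and 2 lower, the list of mitochondrial DNA maintenance, transcription and biogenesis had 2 of 13 higher and 1 lower, and the 2 tested genes of coenzyme Q synthesis did not pass.

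PDK4, a kinase that switches off pyruvate dehydrogenase, had the largest change in these lists. It was at 6.79 ± 0.25 in Oct4low (SD, n = 4), 5.67 ± 0.03 in Oct4med (SD, n = 2) and 5.57 ± 0.20 in Oct4hi BCCs (SD, n = 4). The difference was -1.22 ± 0.13 (SE, log2; adjusted p = 3.1e-05 by limma) in Oct4hi and -1.12 ± 0.16 (SE, log2; adjusted p = 0.000401) in Oct4med against Oct4low BCCs. IDH3A, the catalytic subunit of isocitrate dehydrogenase of the cycle, rose by 0.48 ± 0.08 (SE, log2; adjusted p = 0.000646) in Oct4hi over Oct4low BCCs. In the same comparison UQCC3, an assembly factor of complex III, rose by 0.44 ± 0.08 (SE, log2; adjusted p = 0.00113), TFAM, a packaging protein and transcription factor of mitochondrial DNA, by 0.41 ± 0.10 (adjusted p = 0.00940) and the matrix chaperonin HSPD1 by 0.41 ± 0.10 (adjusted p = 0.00802). LRPPRC, which stabilizes mitochondrial messenger RNAs, fell by -0.51 ± 0.15 (adjusted p = 0.0176). MYC, of the same list as TFAM, fell by -0.32 ± 0.07 (adjusted p = 0.00345).

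In Oct4med against Oct4low BCCs, 5.68% of all genes tested were higher and 11.7% lower, and other assembly factors had 4 of 16 lower. Among them LRPPRC fell by -0.82 ± 0.18 (SE, log2, adjusted p = 0.00753 by limma), and its mean was 6.49 in Oct4med and 6.80 in Oct4hi BCCs. SCO2, a copper chaperone of complex IV, fell by -0.36 ± 0.09 (SE, log2, adjusted p = 0.0116). COQ10B, which binds coenzyme Q, fell by -0.52 ± 0.09 (adjusted p = 0.00140) and PPRC1, a coactivator of mitochondrial biogenesis, by -0.47 ± 0.08 (adjusted p = 0.00161). MYC, of the same list as PPRC1, fell by -0.43 ± 0.08 (adjusted p = 0.00380). HSPD1 rose by 0.59 ± 0.12 (adjusted p = 0.00588). In Oct4hi against Oct4med BCCs the mitochondrial ribosome had 7 of 20 higher, the import list 4 of 10 and the other assembly factors 6 of 16, beside 18.2% of all genes tested and 27.5% of the bright ones. TIMM17B, a subunit of the inner membrane translocase, rose there by 0.61 ± 0.08 (adjusted p = 0.000261) and MRPS11 of the small ribosomal subunit by 0.51 ± 0.09 (adjusted p = 0.00159).

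**Figure D4:**
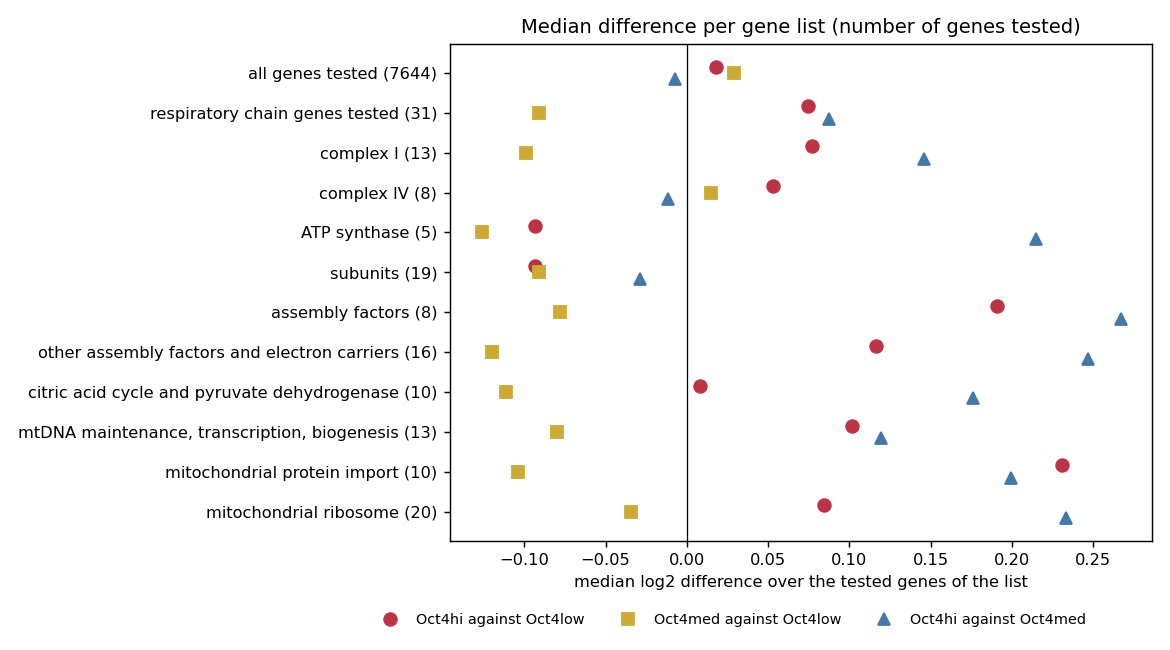
Median difference in log2 value over the tested genes of each list (number of genes in parentheses) for the 3 comparisons, with all genes tested in the top row. The respiratory chain genes have medians of 0.07, -0.09 and 0.09 and all genes tested 0.02, 0.03 and -0.01 in Oct4hi against Oct4low, Oct4med against Oct4low and Oct4hi against Oct4med BCCs.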

How the data were processed

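Per the methods of the paper, the authors took background-corrected intensities through log2 transformation and RMA normalization in BRB-Array Tools. Features near background and those with little change were then removed. The deposited log2 values cover 25750 probe sets, 23 of them controls, of which 18683 carry 1 gene symbol in the platform annotation, 799 several and 6268 none here. The 9 probe sets in which a member shares its probe set with other symbols were left out. All 10 arrays were used.

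Probe sets at or above the median of their array in at least 2 arrays were tested (13883, for 7644 genes). A mean per subset was fitted to all arrays with limma 3.58.1 in R 4.3.3. Its moderated test was two-sided, and Benjamini-Hochberg adjustment covered all tested probe sets, with a threshold of 0.05. The fit was tested on simulated data. Members of each comparison were named if they passed with no overlap between arrays (at most 10 in each direction), with core catalytic subunits and tissue isoforms added. From each other list the 2 with the largest change per comparison could be named. SDHD, SDHAF3, COX19 and COX6A1P1 were named after their values were seen. What is called the methods' t-test here is a two-sample test with equal variances on the same values. The paper used its t-test with a random variance model, which was left out here, so the calls are not those of the authors. Promoter motifs were searched as plain letters. Members and lists were chosen with earlier results of these data known. Alternatives were other filters, normalizations, weights, priors, tests, probe sets, the replicate number as a block, and leaving out each array.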

Additional observations from a re-analysis of the deposited data

Results flagged for a closer look

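In 62 groups of 4 arrays (31 genes in Oct4low and in Oct4hi BCCs), 5 held an array that lay far from the other 3, and chance gives about 1 such group in 20. ATP5ME in Oct4low replicate 3 was at 10.0941, with the others between 9.89 and 9.91. COX11 in Oct4low replicate 4 was at 5.31431 (others 5.59 to 5.64), and COX4I2 in the same array was at 5.48345 (others 5.32 to 5.34). NDUFB7 in Oct4hi replicate 1 was at 5.07343, with the others between 5.46 and 5.48. NDUFV3 in Oct4hi replicate 2 was at 10.6513, with the others all at 10.59.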

How the results depend on the processing

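Of 21 results of single members past the threshold, 15 were lost under at least 1 alternative run, and none turned direction. The remaining 6 passed under every run that kept their probe set (ATP5F1C, NDUFB11 and NDUFV3 in Oct4hi against Oct4low, NDUFA10 in Oct4med against Oct4low, NDUFB11 and NDUFV3 in Oct4hi against Oct4med BCCs). Leaving out _x_at and _s_at probe sets removed the tested probe sets of ATP5F1C, NDUFB11 and NDUFV3. The stricter filter removed that of NDUFA10. NDUFAF1 in Oct4med against Oct4low BCCs was lost under 18 of 21 and ATP5IF1 in Oct4hi against Oct4med BCCs under 14 of 20. Of 36 other results, 8 passed under at least 1 alternative. In Oct4hi against Oct4low BCCs, 3 genes were higher with no filter or without _x_at and _s_at probe sets, 2 were lower under the variation filter, and the median was -0.027 with no filter. In Oct4med against Oct4low BCCs, 0 were higher by the methods' t-test or the stricter filter. The count of lower genes there was 1 under array weights, a common median, a fit of the subsets compared, no filter, the replicate block and without _x_at and _s_at probe sets. It was 2 by the methods' t-test, under quantile normalization and under the variation filter. In Oct4hi against Oct4med BCCs, 3 were higher under quantile normalization, the replicate block, the variation filter and without _x_at and _s_at probe sets, the last of which leaves 0 lower since it removes the ATP5F1C probe sets, and the stricter filter gave a median of 0.23. Leaving out 1 array at a time gave 2 to 6 higher and 3 to 4 lower genes in Oct4hi against Oct4low BCCs (medians 0.02 to 0.08). It gave 0 to 1 higher and 1 to 3 lower in Oct4med against Oct4low BCCs (medians -0.19 to -0.03), and 3 to 9 higher and 0 to 3 lower in Oct4hi against Oct4med BCCs (medians 0.01 to 0.14). Same-numbered arrays had deviations that correlated between -0.26 and 0.28. Arrays of different number were not compared in this way, so whether the numbers pair the samples was not tested. Except where a probe set choice shows it, the cause was not tested. The 2 Oct4med arrays and dim probe sets, those of NDUFA10 and NDUFA2 among them, limit the precision.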
